A study of Macaca mulatta with 12 samples.

Results

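The genes described are 9 transcriptional targets of the tumour suppressor p53, found by symbol in a deposited expression table of a rhesus macaque heart-cell series: CDKN1A, GADD45A, CCNG1, BTG2, MDM2, SESN1, BAX, FAS and GDF15. They are 9 of the 16745 genes in the table, and all 9 passed the filter on low values that left 12084 genes to test. RNA came from cultures whose labels call them cardiomyocytes, made from induced pluripotent stem cells of the rhesus macaque, with 3 libraries in each of 4 groups: engineered heart tissue (EHT, a culture in 3 dimensions) in hypoxia, EHT in normoxia, monolayer in hypoxia and monolayer in normoxia. All groups were grown in RPMI medium with the B27 supplement containing insulin. For hypoxia the labels give 24 hours in an anaerobic pouch and then 24 hours after the medium was changed. The time of RNA sampling is not stated and no medium change is recorded for normoxia, so lack of oxygen, the return of oxygen and fresh medium cannot be told apart. Neither the number of cell lines nor whether the 3 libraries of a group were separate differentiations is given, so p-values cover only the spread between these libraries.

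p53 is a transcription factor that the E3 ubiquitin ligase MDM2 keeps scarce by marking it for destruction. DNA damage and other stresses weaken that hold, p53 accumulates, and it switches on genes that halt the cell cycle, repair DNA, restrain growth or kill the cell. MDM2 is itself one of those genes, which closes a negative feedback loop. Because p53 is controlled largely at the protein level, its activity is often read from the RNA of its targets. Several of the targets also answer to other regulators. CDKN1A and GADD45A respond to other stress and growth signals, and GDF15 is also induced by the integrated stress response, in which the factor ATF4 rewires expression when protein synthesis is impaired.

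Values are given on the authors' variance-stabilised log2 scale after the median of the tested genes in the same library was subtracted, so a centred value of 0 is the middle of that library. This was done because library medians of the deposited values ran from 6.98 to 8.75. Centring moved the log2 differences of all genes alike: by 0.74 for culture in normoxia, 0.04 for culture in hypoxia, -0.15 for hypoxia in EHT, 0.55 for hypoxia in monolayer and -0.70 for the interaction. The values gave back whole read counts, 4154346 to 11298841 per library, from which CPM values, reads scaled to a common library total, are quoted. No gene lengths were used, so levels are compared between libraries and not between genes. In bulk RNA, fewer cells of a type and less RNA per cell cannot be told apart.

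The labelled cell type was checked against markers. The 9 cardiomyocyte markers in the table took 0.00195 to 0.106% of reads in EHT hypoxia, 0.000906 to 0.0175% in EHT normoxia, 0.520 to 0.573% in monolayer hypoxia and 0.0451 to 0.321% in monolayer normoxia, and none was at 0 reads in any group. The 8 fibroblast markers took 3.33 to 7.04% over all libraries. The 6 epithelial markers took 0.0904 to 0.478% of reads in monolayer normoxia and at most 0.00768% in any library of the other 3 groups. EHT hypoxia replicate 3 stood apart on the first principal component, at -79.58 against -24.63 and -24.86 for the other EHT hypoxia libraries, and the fits were also run without it. The lowest cardiomyocyte marker shares of EHT hypoxia, EHT normoxia and monolayer normoxia were each those of the library numbered 3. They were 0.00195, 0.000906 and 0.0451%, against group medians of 0.0778, 0.00872 and 0.230%.

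After centring, monolayer normoxia was the lowest of the 4 groups in mean for 8 of the 9 genes, against 5 of 9 on the deposited values and 6 of 9 in CPM. BTG2 was lowest in EHT normoxia on all 3 scales, SESN1 and BAX were lowest in EHT hypoxia on the deposited values and in CPM, and CCNG1 was lowest in EHT normoxia on the deposited values. In EHT against monolayer in normoxia 8 of the 9 genes were higher by limma, against 22.8% of all tested genes called higher, 18.5% called lower and 41.2% called in either direction. Their median log2 difference was 1.10, against 0.07 over all tested genes. In monolayer, hypoxia against normoxia also had 8 of 9 higher, against 27.8% of tested genes higher, 18.6% lower and 46.5% either way, with a median of 2.04 against 0.07. In EHT the same comparison split the genes, with 2 higher and 3 lower, against 19.5% and 16.0% of tested genes and 35.5% either way. EHT against monolayer in hypoxia had 1 higher and 3 lower, against 18.4% and 19.7% of tested genes and 38.1% either way. The difference between the hypoxia responses, EHT minus monolayer, was called below 0 for 7 of 9 genes, against 14.1% of tested genes below 0, 10.3% above 0 and 24.5% either way, with a median of -1.42 against -0.08. The libraries of the 2 groups did not overlap for 8 of 9 genes in EHT against monolayer in normoxia (55.5% of tested genes), for 6 of 9 in hypoxia (50.8%), for 3 of 9 in hypoxia against normoxia in EHT (43.5%) and for 9 of 9 in monolayer (62.0%). These comparisons share libraries, so the counts are not independent of each other.

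**Figure D1:**
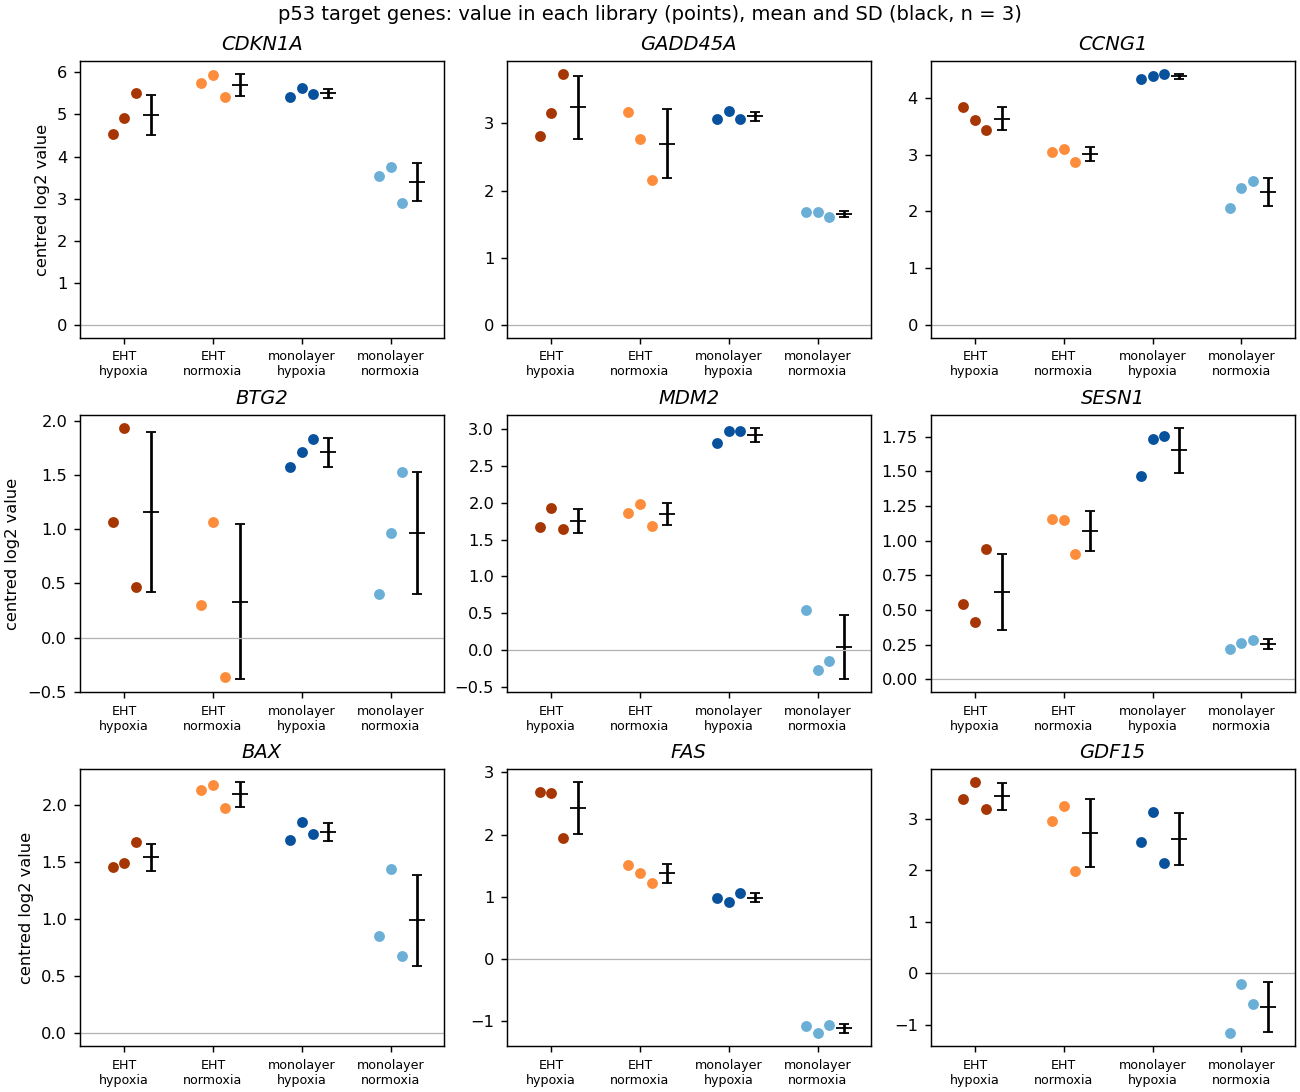
Centred log2 value of each of the 9 genes (vertical axes, differing in range) in every library of EHT hypoxia, EHT normoxia, monolayer hypoxia and monolayer normoxia; points are libraries, and the black bar is the mean with its SD (n = 3). On this centred scale monolayer normoxia is lowest in mean for every gene but BTG2, while in CPM SESN1 and BAX, and on the deposited values also CCNG1, are lowest in EHT; BTG2 values spread over more than 1 log2 unit in EHT and in monolayer normoxia.

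CDKN1A encodes p21, an inhibitor of cyclin-dependent kinases and the main effector of p53 in cell cycle arrest. Its centred log2 values were 4.55, 4.92 and 5.50 in EHT hypoxia, 5.75, 5.94 and 5.41 in EHT normoxia, 5.40, 5.62 and 5.48 in monolayer hypoxia, and 3.54, 3.76 and 2.89 in monolayer normoxia. The monolayer normoxia libraries lay below all the others, and the other 3 groups overlapped their neighbours in the order of means. The group means were 688 ± 195 CPM in EHT hypoxia, 1333 ± 175 CPM in EHT normoxia, 894 ± 35.5 CPM in monolayer hypoxia and 358 ± 113 CPM in monolayer normoxia (SD, n = 3 each). EHT exceeded monolayer in normoxia by 2.30 log2 units (SE 0.25, adjusted p = 2.3e-05), a CPM ratio of 3.72. Hypoxia raised CDKN1A in monolayer by 2.11 (adjusted p = 3.2e-05), a CPM ratio of 2.50.

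In EHT the direction of CDKN1A was the opposite. Hypoxia lowered it by a log2 difference of -0.71 (SE 0.25, adjusted p = 0.0454), a CPM ratio of 0.516. After centring, EHT hypoxia replicate 3, at 5.50, lay above EHT normoxia replicate 3, at 5.41, but in CPM it lay below. Leaving out 1 library at a time gave differences between -0.97 and -0.49. The call was lost without any of 8 of the 12 libraries (adjusted p at most 0.182), and held without EHT hypoxia replicate 3, EHT normoxia replicate 3 and monolayer normoxia replicates 2 and 3. The hypoxia responses of EHT and monolayer differed by -2.81 (SE 0.36, adjusted p = 0.000297). Within hypoxia, EHT and monolayer differed by -0.51 (95% interval -1.06 to 0.04, adjusted p = 0.129). Without EHT hypoxia replicate 3 that difference was -0.77 and was called (adjusted p = 0.0204).

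GADD45A encodes a small protein that binds cell cycle and DNA repair factors. Its centred values were 2.81, 3.16 and 3.74 in EHT hypoxia, 3.17, 2.76 and 2.16 in EHT normoxia, 3.07, 3.18 and 3.06 in monolayer hypoxia, and 1.68, 1.68 and 1.60 in monolayer normoxia. The 3 higher groups overlapped one another and monolayer normoxia lay under all of them. GADD45A was higher in EHT than in monolayer in normoxia by 1.04 (SE 0.24, adjusted p = 0.00459) and rose in monolayer with hypoxia by 1.45 (adjusted p = 0.000394). Neither call held on the deposited values without centring, where limma gave 0.31 (adjusted p = 0.654) and 0.90 (adjusted p = 0.158). In EHT the hypoxia difference was 0.54 (95% interval 0.01 to 1.06, adjusted p = 0.106). It was called without EHT hypoxia replicate 1 (0.75, adjusted p = 0.0408) and without EHT normoxia replicate 1 (0.77, adjusted p = 0.0343). The responses of EHT and monolayer differed by -0.91 (adjusted p = 0.0718), which was called at -1.17 without EHT hypoxia replicate 3 (adjusted p = 0.00967) and at -1.19 without EHT normoxia replicate 3 (adjusted p = 0.0147).

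CCNG1 encodes cyclin G1, which acts with protein phosphatase 2A on MDM2 and does not drive the cell cycle as other cyclins do. Centred values were 3.84, 3.61 and 3.43 in EHT hypoxia, 3.04, 3.10 and 2.88 in EHT normoxia, 4.34, 4.37 and 4.42 in monolayer hypoxia, and 2.06, 2.41 and 2.54 in monolayer normoxia. No pair of groups overlapped, and monolayer hypoxia was the highest. Hypoxia raised CCNG1 in both cultures, by 0.62 in EHT (SE 0.15, adjusted p = 0.00547) and by 2.04 in monolayer (adjusted p = 6.4e-07). The EHT response was smaller by -1.42 (SE 0.21, adjusted p = 0.000563). In hypoxia EHT was lower than monolayer by a log2 difference of -0.75 (adjusted p = 0.00175). In normoxia EHT was higher by 0.67 (adjusted p = 0.00305), a direction that turned to -0.07 on the deposited values without centring. With reads scaled to the library total, the normoxia difference was 0.30 (adjusted p = 0.12) and the EHT hypoxia response 0.36 (adjusted p = 0.0811), and neither was called.

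BTG2, an antiproliferative protein that recruits the machinery that shortens messenger RNA tails, did not follow the other genes. It ran from 0.47 to 1.94 in EHT hypoxia, from -0.37 to 1.07 in EHT normoxia, from 1.58 to 1.84 in monolayer hypoxia and from 0.40 to 1.53 in monolayer normoxia. Centred, monolayer hypoxia lay above both normoxia groups, though in CPM its mean was 62.8, under the 64.9 of monolayer normoxia, and neighbours in the order of centred means overlapped. None of its differences was called by limma or had an unadjusted p under 0.05, and their SE of 0.40 was the widest among the 9 genes. The difference in normoxia, EHT minus monolayer, was -0.63 (95% interval -1.49 to 0.23, adjusted p = 0.22). It was called at -1.06 with reads scaled to the library total (adjusted p = 0.0443) and at -1.37 on the deposited values (adjusted p = 0.0192). Hypoxia minus normoxia was 0.83 in EHT (95% interval -0.03 to 1.69) and 0.74 in monolayer (-0.11 to 1.60). The EHT value was called at 1.17 without EHT hypoxia replicate 3 (adjusted p = 0.0257) and at 1.20 without EHT normoxia replicate 2 (adjusted p = 0.0423), and the monolayer value was called with the monolayer groups alone in the fit (0.74, adjusted p = 0.0217).

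MDM2, the feedback inhibitor of p53, gave the largest difference between the hypoxia responses among the 9 genes. Its centred values were 1.67, 1.93 and 1.65 in EHT hypoxia, 1.86, 1.98 and 1.69 in EHT normoxia, 2.80, 2.97 and 2.97 in monolayer hypoxia, and 0.54, -0.26 and -0.15 in monolayer normoxia. On this scale the EHT groups overlapped almost completely, between a higher monolayer hypoxia group and a lower monolayer normoxia group. The EHT hypoxia libraries all lay below those of EHT normoxia in CPM, with a ratio of means of 0.781. In CPM the means were 69.5 ± 8.86 in EHT hypoxia, 89.1 ± 5.07 in EHT normoxia, 147 ± 6.21 in monolayer hypoxia and 32.8 ± 11.1 in monolayer normoxia (SD, n = 3 each). Hypoxia raised MDM2 in monolayer by 2.88 log2 units (SE 0.19, adjusted p = 3.76e-07), a CPM ratio of 4.49.

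In EHT the hypoxia difference of MDM2 was -0.09 (95% interval -0.50 to 0.32, adjusted p = 0.746), and it was 0.06 on the deposited values without centring. The responses of EHT and monolayer differed by -2.97 (SE 0.27, adjusted p = 4.32e-05). MDM2 was higher in EHT than in monolayer in normoxia by 1.80 (adjusted p = 1.66e-05), a call that the deposited values without centring did not give (1.07, adjusted p = 0.0778). In hypoxia the sign was the other way, with EHT lower by a log2 difference of -1.17 (adjusted p = 0.000542). The deposited values gave -1.20 there, with an adjusted p of 0.0781.

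SESN1, a sestrin that restrains the growth kinase mTORC1 and takes part in antioxidant defence, was highest in monolayer hypoxia, and lowest in monolayer normoxia after centring but in EHT hypoxia on the deposited values and in CPM (30.9 CPM in EHT hypoxia, against 37.0 CPM in monolayer normoxia). Centred values were 0.54, 0.42 and 0.94 in EHT hypoxia, 1.16, 1.15 and 0.91 in EHT normoxia, 1.46, 1.74 and 1.76 in monolayer hypoxia, and 0.22, 0.26 and 0.29 in monolayer normoxia. Only the EHT groups overlapped. SESN1 rose in monolayer with hypoxia by 1.40 (SE 0.16, adjusted p = 2e-05) and was higher in EHT than in monolayer in normoxia by 0.82 (adjusted p = 0.00141). In hypoxia it was lower in EHT than in monolayer by a log2 difference of -1.02 (adjusted p = 0.000402). In EHT it fell with hypoxia by 0.44 (adjusted p = 0.0465), a call that held only without EHT hypoxia replicate 3 or EHT normoxia replicate 3 and was lost without any of the other 10 libraries (adjusted p at most 0.175). The responses of EHT and monolayer differed by -1.84 (adjusted p = 0.000219). None of these 5 calls of SESN1 held on the deposited values without centring, where its difference in normoxia was 0.08 (adjusted p = 0.919).

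BAX, which permeabilises the outer mitochondrial membrane in apoptosis, was highest in EHT normoxia. Its centred values were 1.46, 1.50 and 1.68 in EHT hypoxia, 2.13, 2.18 and 1.97 in EHT normoxia, 1.69, 1.85 and 1.75 in monolayer hypoxia, and 0.86, 1.44 and 0.67 in monolayer normoxia. No neighbouring groups in the order of means overlapped, though EHT hypoxia and monolayer hypoxia were separated by only 1.68 against 1.69. BAX was higher in EHT than in monolayer in normoxia by 1.10 (SE 0.17, adjusted p = 0.000321). It fell in EHT with hypoxia by 0.55 (adjusted p = 0.0263), and this call was lost without EHT hypoxia replicate 1 or 2 or EHT normoxia replicate 1 or 2, with adjusted p between 0.0742 and 0.0876. In monolayer it rose by 0.77 (adjusted p = 0.0029). With reads scaled to the library total that rise was 0.04 (adjusted p = 0.847), and BAX had 63.9, 66.9 and 64.7 CPM in monolayer hypoxia, against 57.4, 89.1 and 49.3 CPM in monolayer normoxia. The responses of EHT and monolayer differed by -1.32 (SE 0.25, adjusted p = 0.00244). None of these calls of BAX held on the deposited values without centring, where limma gave 0.37 for its difference in normoxia (adjusted p = 0.585).

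FAS, the cell surface receptor through which Fas ligand triggers apoptosis, was the member called higher in hypoxia in both cultures and higher in EHT in both oxygen conditions. Centred values were 2.68, 2.67 and 1.95 in EHT hypoxia, 1.51, 1.38 and 1.22 in EHT normoxia, 0.99, 0.92 and 1.05 in monolayer hypoxia, and -1.08, -1.20 and -1.07 in monolayer normoxia. The 4 groups did not overlap. It ran from 75.8 to 140 CPM in EHT hypoxia, from 61.5 to 67.2 CPM in EHT normoxia, from 34.2 to 39.4 CPM in monolayer hypoxia and from 12.1 to 13.9 CPM in monolayer normoxia. EHT exceeded monolayer by 2.49 log2 units in normoxia (SE 0.18, adjusted p = 1e-06) and by 1.45 in hypoxia (adjusted p = 0.000106). Hypoxia raised FAS by 1.06 in EHT (adjusted p = 0.000779) and by 2.10 in monolayer (adjusted p = 3e-06). The EHT response was smaller by -1.04 (SE 0.26, adjusted p = 0.0114), a call lost with reads scaled to the library total (-0.67, adjusted p = 0.0946).

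GDF15, a secreted stress hormone of the TGF-beta superfamily, had the largest difference between the cultures among the 9 genes. Its centred values were 3.38, 3.72 and 3.20 in EHT hypoxia, 2.96, 3.24 and 1.99 in EHT normoxia, 2.54, 3.13 and 2.14 in monolayer hypoxia, and -1.16, -0.20 and -0.60 in monolayer normoxia. The 3 higher groups formed a chain of overlapping neighbours, and monolayer normoxia lay more than 2 log2 units under them. The deposited scale flattens low values, and the CPM ratio of EHT to monolayer in normoxia was 8.97, from means of 175 ± 63.1 CPM in EHT and 19.5 ± 7.43 CPM in monolayer (SD, n = 3 each). The log2 difference was 3.38 (SE 0.33, adjusted p = 1.1e-05).

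With hypoxia GDF15 rose in monolayer by 3.26 (adjusted p = 1e-05), a CPM ratio of 6.29. In EHT the hypoxia difference was 0.70 (95% interval -0.02 to 1.43, adjusted p = 0.122), and the responses differed by -2.56 (SE 0.47, adjusted p = 0.00239). In hypoxia EHT and monolayer differed by 0.82 (95% interval 0.10 to 1.55, adjusted p = 0.0685). That difference was called without EHT normoxia replicate 3 (0.82, adjusted p = 0.0315), without monolayer hypoxia replicate 2 (1.09, adjusted p = 0.04) and without both EHT libraries numbered 3 (0.93, adjusted p = 0.016). It was also called with the hypoxia groups alone in the fit (0.82, adjusted p = 0.0344) and with reads scaled to the library total (0.93, adjusted p = 0.0402).

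**Figure D2:**
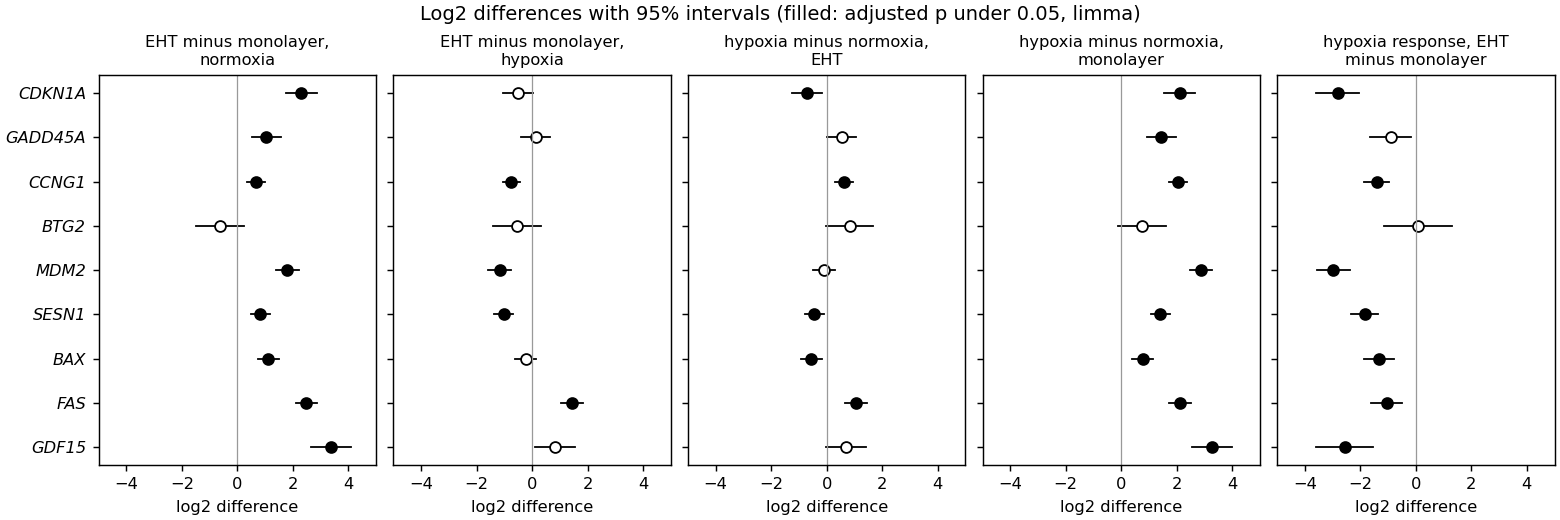
Log2 difference (horizontal axis) of each of the 9 genes in the 5 comparisons, with its 95% interval; filled points have an adjusted p under 0.05 by limma. In normoxia and in the monolayer hypoxia comparison every gene but BTG2 is filled on the right, while the difference between the hypoxia responses lies on the left for every gene but BTG2 and is filled for 7; on the deposited values without centring, CCNG1 in normoxia was -0.07 and MDM2 in EHT hypoxia 0.06.

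Hypoxia-inducible genes were higher in the hypoxia groups of both cultures, where lack of oxygen, its return and fresh medium cannot be told apart. Of 21 tested hypoxia-inducible genes, 21 rose in EHT (median 3.32), against 19.5% of tested genes, and 20 in monolayer (median 2.48), against 27.8%. Among them was the glucose transporter gene SLC2A1 in EHT, by 3.88. The difference between the responses, EHT minus monolayer, was called above 0 for 10 of these 21 genes, against 10.3% of tested genes. In normoxia 1 of the 21 was higher and 11 were lower in EHT than in monolayer (median -0.95), against 22.8% and 18.5% of tested genes. In hypoxia 6 were higher and 5 lower (median 0.14), against 18.4% and 19.7%. The cyclin G1 paralogue CCNG2 rose by 1.93 in EHT (adjusted p = 1.07e-05) and by 1.82 in monolayer (adjusted p = 8.09e-06), with a difference between the responses of 0.11 (SE 0.26, adjusted p = 0.802), whereas that of CCNG1 was -1.42.

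MDM4, the MDM2 relative that blocks p53 without degrading it, rose with hypoxia by 0.66 in EHT (adjusted p = 0.0329) and by 0.60 in monolayer (adjusted p = 0.0394), but by library total neither was called and the monolayer difference turned to -0.12.

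TP63, which encodes the p53 relative p63 of epithelial progenitors, was highest in monolayer normoxia, where 8 of the 9 genes were lowest after centring. It had 1 to 13 reads per library in EHT hypoxia, 0 to 2 in EHT normoxia, 2 to 3 in monolayer hypoxia and 355 to 1857 in monolayer normoxia. Of the 6 epithelial markers 5 moved with it. The other, KRT18, had a CPM ratio of hypoxia to normoxia of 1.15 in monolayer and 0.122 in EHT. In EHT against monolayer in normoxia 5 of 6 were lower (18.5% of tested genes), and 5 of 6 fell with hypoxia in monolayer (18.6%). The contrasts in which 8 of the 9 p53 targets were higher are these same 2. Smooth muscle markers, 6 in the table, took 0.135 to 0.147% of reads in EHT hypoxia, 0.210 to 0.299% in EHT normoxia, 0.541 to 0.650% in monolayer hypoxia and 0.1825 to 0.416% in monolayer normoxia, with none at 0 reads in any group. Of these, 4 of 6 rose with hypoxia in monolayer (2 by library total), against 27.8% of tested genes. In hypoxia 6 of 6 were lower in EHT than in monolayer (19.7% of tested genes). The difference between the responses was below 0 for 4 of 6 (14.1%). Of the 9 cardiomyocyte markers, 7 were lower in EHT than in monolayer in normoxia (18.5% of tested genes). With hypoxia in monolayer 5 rose (1 by library total), against 27.8% of tested genes. In EHT 2 of the 9 rose with hypoxia (9 without EHT hypoxia replicate 3), against 19.5% of tested genes. Of the 6 epithelial markers 3 rose and 1 fell there, and of the 6 smooth muscle markers 0 rose and 2 fell (16.0% of tested genes fell). The part of these cells in the differences of the p53 targets was not tested. Of the 18 tested regulators of p53, 8 rose and 3 fell with hypoxia in each culture, against 19.5% and 16.0% of tested genes in EHT and 27.8% and 18.6% in monolayer. In monolayer that balance depended on the scaling, with 2 risen and 10 fallen by library total and 0 and 3 on the deposited values by limma, while in EHT the counts were 5 and 3, and 2 and 1. The damage kinase genes ATM and ATR moved apart: ATM rose by 0.98 in EHT (adjusted p = 0.00124) and 1.34 in monolayer, and ATR fell by 1.63 in EHT (adjusted p = 0.000204) and by 1.61 in monolayer.

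**Figure D3:**
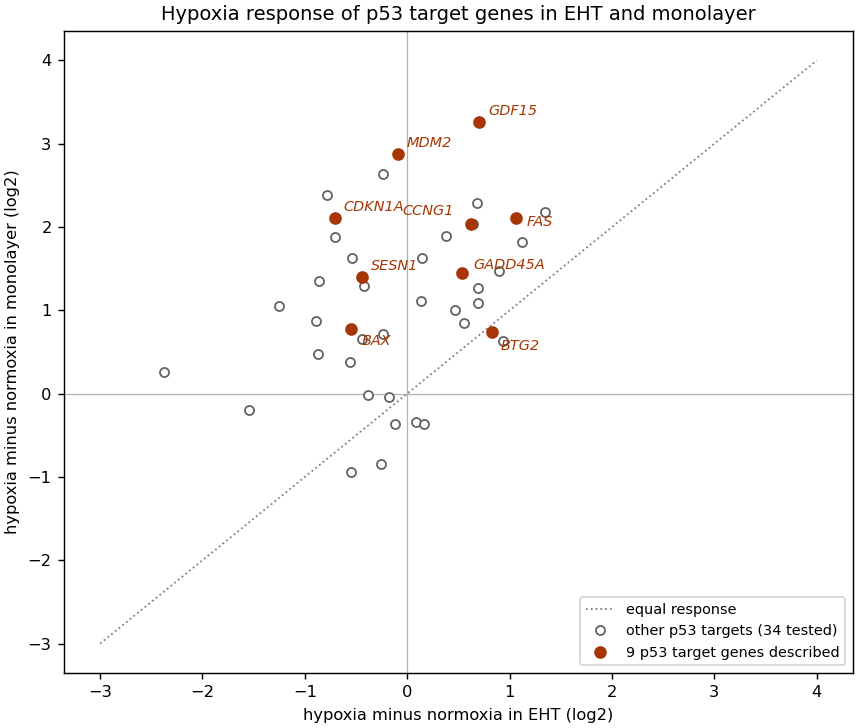
Hypoxia minus normoxia log2 difference in EHT (horizontal axis) and in monolayer (vertical axis) for the 9 genes (filled) and 34 other tested p53 targets (open); the dotted line marks equal responses. MDM2 lies at -0.09 in EHT (0.06 on the deposited values) and 2.88 in monolayer, and BTG2 is the member nearest the line.

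The wider p53 programme was described with 37 further targets from a list, of which 35 were in the table and 34 were tested. In EHT against monolayer in normoxia 24 of 34 were higher and 1 lower, against 22.8% and 18.5% of tested genes, with a median of 0.91. Among those higher were TRIM22, an antiviral ubiquitin ligase (4.03), RPS27L, a ribosomal protein paralogue (2.52), and RRM2B, the p53-inducible subunit of ribonucleotide reductase (2.10). The one lower was PERP, a desmosome-associated protein of epithelia (-1.55, adjusted p = 0.00689). In monolayer 23 of 34 rose with hypoxia and 1 fell, against 27.8% and 18.6% of tested genes, with a median of 1.03. RRM2B (2.64), the tetraspanin CD82 (2.19) and the RNA-binding protein ZMAT3 (2.39) rose, and the nucleotide excision repair gene XPC fell by 0.84.

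With hypoxia in EHT 8 of the 34 further targets rose and 9 fell, against 19.5% and 16.0% of tested genes, with a median of -0.20. The count risen was near the share of all genes, and without EHT hypoxia replicate 3 the counts were 7 and 11. CD82 (1.35), the apoptosome gene APAF1 (0.94) and the translesion polymerase gene POLH (0.89) rose. TIGAR, a regulator of glycolysis, fell by 2.38, and the p53-damping phosphatase gene PPM1D by 0.86. In hypoxia 8 of 34 were higher in EHT than in monolayer and 12 were lower, against 18.4% and 19.7% of tested genes, ZMAT3 among the lower at -1.84. The responses of the cultures differed for 17 of 34, in each case below 0 (14.1% of tested genes), and RRM2B (-2.88), ZMAT3 (-3.17) and RPS27L (-2.17) led by p-value. With reads scaled to the library total the counts higher and lower were 18 and 4 in normoxia, 14 and 7 for hypoxia in monolayer, 3 and 13 for hypoxia in EHT, and 4 and 12 for the difference between responses. On the deposited values they were 6 and 3, 8 and 2, 1 and 2, and 0 and 2 for the same 4 comparisons.

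Paralogues of the members behaved unevenly. Among sestrins, SESN3 rose with hypoxia in monolayer by 2.58 (adjusted p = 4.6e-06) and its response differed between cultures by -2.06 (adjusted p = 0.00117). SESN2 rose in EHT by 0.69 (adjusted p = 0.0372) and in monolayer by 1.09 (adjusted p = 0.00232), and neither call held by library total. Without EHT hypoxia replicate 3 the EHT value was 0.46 and was not called (adjusted p = 0.113). GADD45B was lower in EHT than in monolayer, by a log2 difference of -1.45 in normoxia (adjusted p = 0.00231), where GADD45A was higher. CDKN1B, which encodes the p21 relative p27, rose with hypoxia in EHT by 1.14 (adjusted p = 0.000543), where CDKN1A fell. TOB1, of the BTG2 family, fell with hypoxia in EHT by 0.81 and rose in monolayer by 1.19. The antiapoptotic gene BCL2L1, of the BAX family, rose with hypoxia in monolayer by 1.51 and its response differed between cultures by -1.66 (adjusted p = 0.000774). TNFRSF10B, a death receptor for TRAIL and itself a p53 target, rose with hypoxia in monolayer by 2.28 and was higher in EHT in normoxia by 1.42.

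Genes of the cell cycle that p21 and the DREAM complex repress ran opposite to CDKN1A in normoxia. Of 28 tested, 27 were lower in EHT than in monolayer in normoxia (median -2.14), against 18.5% of tested genes, among them with the smallest p-values the replicative helicase subunit MCM3 (-2.83) and the spindle checkpoint kinase BUB1 (-2.73). In monolayer 15 of 28 fell with hypoxia (18.6% of tested genes), 22 without EHT hypoxia replicate 3 and 23 with reads scaled to the library total. In EHT 3 rose and 2 fell with hypoxia, lower shares than the 19.5% and 16.0% of tested genes, but without EHT hypoxia replicate 3 the counts were 13 and 3. The ribonucleotide reductase gene RRM2 rose in EHT by 2.12. The difference between the responses, EHT minus monolayer, was above 0 for 9 of 28 (10.3% of tested genes), and for 25 without EHT hypoxia replicate 3 and 16 by library total. In hypoxia 2 of 28 were higher and 9 lower in EHT than in monolayer (median -0.70), against 18.4% and 19.7% of tested genes. The CDKN1A mean was also lower in EHT there, at 4.99 against 5.50. That difference was not called, but was called at -0.77 without EHT hypoxia replicate 3. Any link between CDKN1A and these genes was not tested. The mean centred value of the 28 genes was -0.54, -0.68 and -1.90 in EHT hypoxia, -1.12, -1.41 and -0.85 in EHT normoxia, -0.25, -0.23 and -0.36 in monolayer hypoxia, and 0.77, 0.66 and 1.21 in monolayer normoxia. EHT hypoxia replicate 3, the lowest library at -1.90, also had the highest CDKN1A of its group, 5.50, and the lowest FAS, 1.95.

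**Figure D4:**
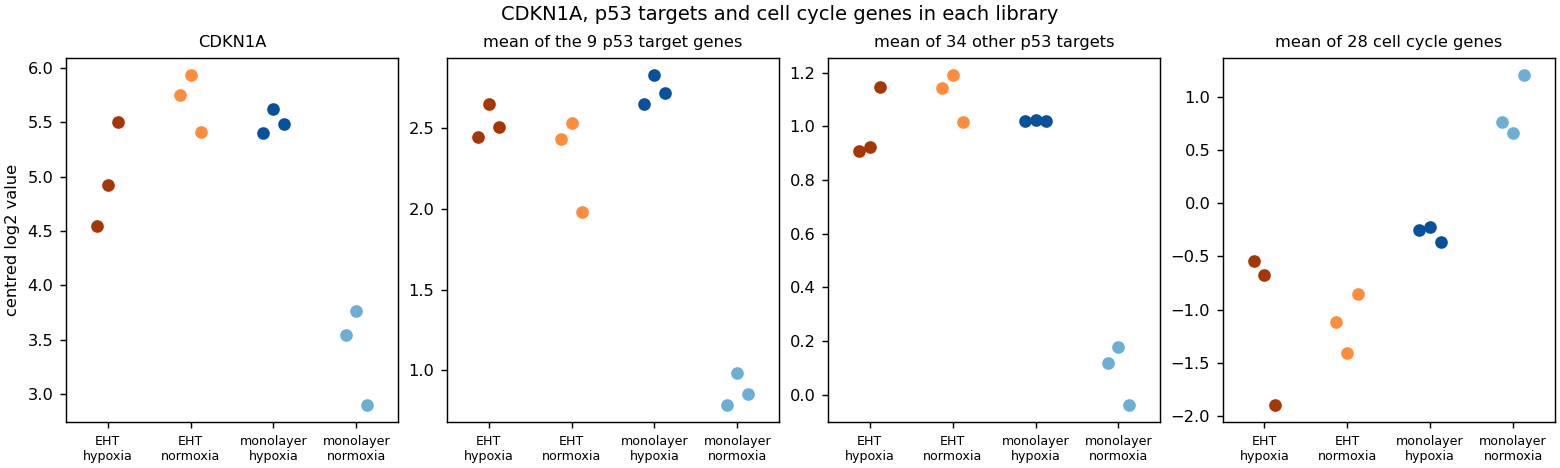
Centred log2 value of CDKN1A and mean centred values of the 9 genes, of 34 other tested p53 targets and of 28 cell cycle genes (vertical axes, differing in range) in every library (points). Monolayer normoxia libraries are lowest in the first 3 panels and highest in the last, where EHT hypoxia replicate 3 lies at -1.90.

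Of 16 tested genes of the integrated stress response, 8 were higher and 1 lower in EHT than in monolayer in normoxia, against 22.8% and 18.5% of tested genes. With hypoxia 9 of 16 rose in EHT (19.5% of tested genes), where GDF15 was not called, and 9 rose in monolayer (27.8%), where it was. The difference between the responses was called below 0 for 2 of 16 (14.1%). Without EHT hypoxia replicate 3 the counts risen and fallen were 7 and 3 in EHT and 11 and 1 in monolayer, and 4 of 16 differences between the responses were below 0. By library total the counts were 6 higher and 3 lower in normoxia, 5 risen and 1 fallen in EHT, and 5 risen and 2 fallen in monolayer. DDIT3, a proapoptotic factor induced by ATF4, was higher in EHT in normoxia by 1.70 (adjusted p = 2.08e-05), and hypoxia raised it by 2.28 in EHT and by 4.04 in monolayer. Its responses differed by -1.76 (adjusted p = 0.000664), as those of GDF15 differed by -2.56. How much of the GDF15 difference goes with that response was not tested.

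The tested genes most like CDKN1A over the 12 libraries were CTSF, PHLDA3, EBF1, CIB1 and LAMP1. Likeness was the root mean square difference of centred values after the mean of each gene was subtracted, and it was 0.185 for CTSF and 0.332 for LAMP1, against a spread of 0.95 (SD) for CDKN1A itself. For MDM2 the nearest were RRM2B, TPM2, COL12A1, PALLD and NT5DC3, from 0.279 for RRM2B to 0.309 for NT5DC3, against an SD of 1.05. PHLDA3, an inhibitor of the kinase AKT, and RRM2B were on the list of further p53 targets. No other member was among these nearest 5: CDKN1A and MDM2 differed from each other by 0.558, and CCNG1 was the member nearest to MDM2, at 0.521. FAS was the member nearest to GDF15, at 0.594.

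The size of the differences depended on how libraries were scaled. On the deposited values without centring, the median over all tested genes was -0.66 in EHT against monolayer in normoxia, and 4 of the 9 genes were called, 3 higher and 1 lower, with 9.5% of all calls on the higher side against 55.2% after centring. For hypoxia in monolayer that median was -0.48, 5 of 9 were called, and 18.2% of all calls were on the higher side against 59.9%. With library totals those medians were -0.36 and -0.69, 7 of 9 were higher in each comparison, BTG2 was lower in normoxia, and 23.2% and 15.7% of all calls were on the higher side. In the interaction the higher side took 42.2% of calls after centring, 91.8% as deposited and 81.4% by library total, and CDKN1A and MDM2 were the members called under each of these 3 scalings. For hypoxia in EHT the shares were 55.0%, 76.1% and 34.9%. The members called as deposited were CDKN1A, FAS, GDF15 and, lower, BTG2 in EHT against monolayer in normoxia, FAS alone in hypoxia, and CDKN1A, CCNG1, MDM2, FAS and GDF15 for hypoxia in monolayer. For hypoxia in EHT limma called 0 of 9 as deposited, with 2 at an unadjusted p under 0.05. Scaling by median of ratios changed the call of none of the 9 genes, but put 44.2% of calls in normoxia on the higher side. The 20 most abundant genes took 12.4 to 13.7% of reads in monolayer normoxia and 16.3 to 24.6% elsewhere.

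**Figure D5:**
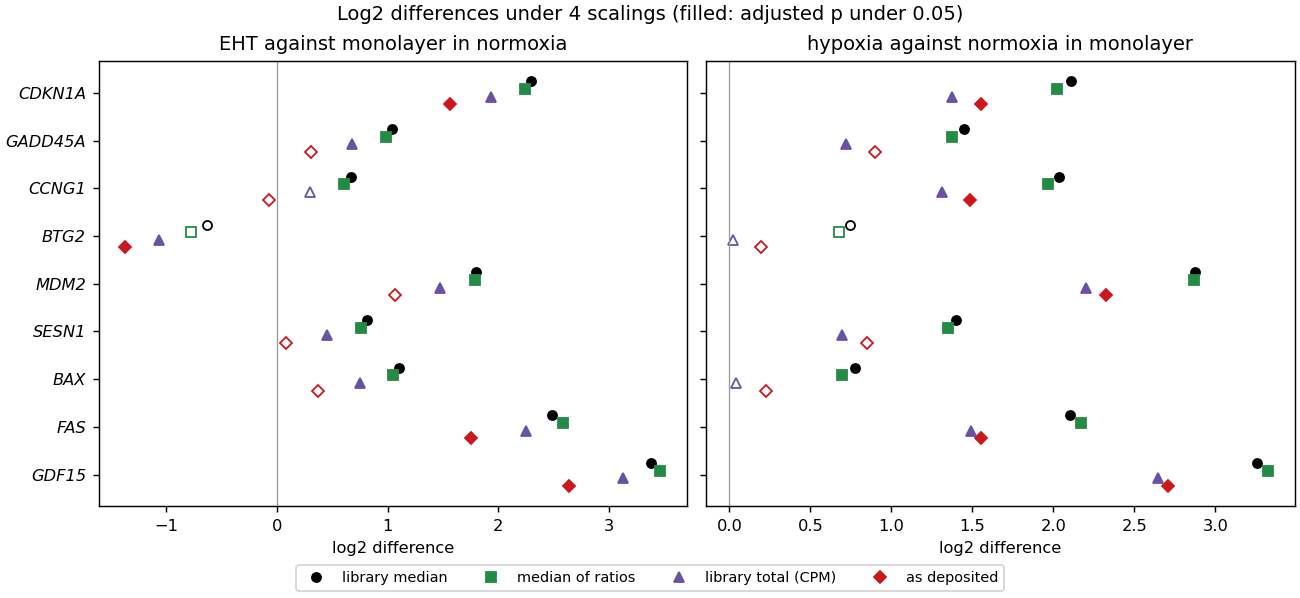
Log2 difference (horizontal axis) of the 9 genes in EHT against monolayer in normoxia and in hypoxia against normoxia in monolayer, under 4 scalings of the libraries; filled points have an adjusted p under 0.05. CDKN1A, FAS and GDF15 are filled under all 4 in both panels, while BAX in monolayer ranges from 0.04 to 0.77 and CCNG1 in normoxia from -0.07 to 0.67.

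Reads shared with overlapping genes could not be separated, since neither strand nor annotation is given in the sources used here. In the RefSeq annotation of T2T-MMU8v2.0, 5 of the 9 genes (MDM2, SESN1, GDF15, FAS and BTG2) overlap another annotated gene, each a noncoding RNA or a pseudogene.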

How the data were processed

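Per the labels' protocols, RNA was extracted with the RNeasy Mini Kit and sequenced on the Ion Proton. HISAT2, featureCounts and DESeq2 are named in the submitters' processing notes. Neither their versions nor the genome build, annotation or strand is given in the sources used here. The authors deposited log2 values, variance-stabilised, for 16745 genes in 12 libraries, with a lowest value of 3.00. Inverting the transformation gave whole reads (tolerance 0.01) for 100% of values.

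Tested genes had a mean of 1 log2 unit or more over that lowest value, and each library was centred on its median. limma 3.58.1 (R 4.3.3, mean-variance trend) was fitted to all 12 libraries with 1 mean per group, and p-values were adjusted by Benjamini-Hochberg over the 12084 genes per comparison, with a threshold of 0.05. Prior degrees of freedom were 4.77, and infinite without centring. All 9 members matched RefSeq by symbol.

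The members and lists were chosen with earlier results of these data known. Named genes are the members, MDM4, paralogues, per list and direction at most 3 called genes with the smallest p, and the 5 genes most like CDKN1A and MDM2. Alternatives were scalings, filters, variance models, the compared groups alone, the replicate number as a block and omission of libraries. Library-total scaling, log2(CPM + 0.5), was chosen after seeing the data. The pipeline was tested on simulated data with few genes changed, in EHT normoxia alone. Such data cannot decide between the scalings where many genes differ.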

Additional observations from a re-analysis of the deposited data

Results flagged for a closer look

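For 7 of the 9 genes the hypoxia response differed between EHT and monolayer by the interaction test of limma, adjusted over all tested genes, with 24.5% of tested genes called in either direction. The responses of MDM2 differed by -2.97, those of CDKN1A by -2.81 and those of GDF15 by -2.56. SESN1 differed by -1.84, CCNG1 by -1.42, BAX by -1.32 and FAS by -1.04. Each value is the response in EHT minus that in monolayer, with 3 libraries per group. After centring the signs within EHT were not the same. FAS and CCNG1 rose in both cultures with the smaller rise in EHT, and CDKN1A, SESN1 and BAX fell in EHT while they rose in monolayer. Those falls each lost their call without some single libraries (limma adjusted p up to 0.182 for CDKN1A, 0.175 for SESN1 and 0.0876 for BAX). None was called on the deposited values. By library total the BAX rise in monolayer was 0.04 (limma adjusted p = 0.847). In EHT, MDM2 and GDF15 had differences of -0.09 (0.06 on the deposited values) and 0.70 that were not called. On the deposited values without centring, the interaction was called for CDKN1A and MDM2 alone among the 9.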

How the results depend on the processing

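Median-of-ratios scaling, voom and a stricter filter changed no call of the 9 genes. On the deposited values without centring, members called were 4 in EHT against monolayer in normoxia, 1 in hypoxia, 0 by limma for hypoxia in EHT (2 at an unadjusted p under 0.05), 5 for hypoxia in monolayer and 2 for the interaction. All genes called were 1553 in EHT against monolayer in hypoxia, 1128 for hypoxia in EHT, 2945 for hypoxia in monolayer and 1249 for the interaction. For hypoxia in EHT, 3 members were called without a filter, without a trend and with the compared groups alone. Signs turned for CCNG1 in normoxia (-0.069) and MDM2 in EHT hypoxia (0.058) as deposited. GADD45A in EHT against monolayer in hypoxia ranged from -0.12 (without EHT hypoxia replicate 3) to 0.35 over the omissions and was -0.13 without both EHT libraries numbered 3. The BTG2 interaction ranged from -0.31 to 0.45, and turned without EHT hypoxia replicate 2 (-0.31), EHT normoxia replicate 3 (-0.27) and monolayer normoxia replicate 3 (-0.20). The cause of these changes was not tested.

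Leaving out each library in turn gave 3919 to 5919 genes and 8 to 8 members in EHT against monolayer in normoxia, 3383 to 4692 and 4 to 5 in hypoxia, 3286 to 5308 and 2 to 6 for hypoxia in EHT, 4464 to 6506 and 8 to 8 for hypoxia in monolayer, and 2088 to 4071 and 7 to 8 for the interaction. The main fit did not take the replicate numbers as pairs. Same-numbered libraries of EHT hypoxia and EHT normoxia correlated by 0.04, 0.33 and 0.27, and those of EHT hypoxia and monolayer normoxia by -0.10, 0.32 and 0.08. Correlations between libraries of unlike number were not computed, so these values cannot decide whether same-numbered libraries belong together. With the replicate block, members called were 8, 5, 4, 8 and 7 in the order of comparisons above, with GDF15 gained in hypoxia (adjusted p = 0.0149) and in EHT (0.0325), and CDKN1A (0.0524) and SESN1 (0.0616) lost in EHT. Members had 110 to 13191 reads per library, and with 3 libraries per group the SE of a log2 difference between groups ran from 0.15 to 0.40.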
